A study of Rattus norvegicus with 3 samples.

Results

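Voltage-gated ion channel genes were followed across the cell types of the injured rat spinal cord. The set holds the pore-forming subunits of the voltage-gated potassium channels (gene families Kcna, Kcnb, Kcnc, Kcnd, Kcnh and Kcnq), of the sodium channels (the Scn genes whose symbol ends in a) and of the calcium channels (the Cacna1 genes). Every gene of the deposited feature lists whose symbol had that form was taken, whatever its level, which gave 49 of 17328 genes: 29 potassium, 10 sodium and 10 calcium channel genes. Nuclei came from the lesion epicenter of wild-type rats (strain given as SDrat) aged 17 weeks, at 49 days after spinal cord injury. There were 3 groups with 1 library each. The untreated rats had the injury and no implant, the scaffold rats also had a scaffold for the last 7 days, and the HGF scaffold rats had a scaffold releasing hepatocyte growth factor (HGF), the ligand of the receptor tyrosine kinase Met, for the same 7 days. The injury is shared by all groups, and the labels give neither an uninjured group nor the number of animals behind a library.

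Voltage-gated sodium channels open on depolarization and carry the rising phase of the action potential, potassium channels repolarize the membrane and set the firing pattern, and calcium channels couple voltage to transmitter release, contraction and gene expression. In myelinated axons the channels are sorted along the fibre, with sodium channels and Kcnq channels at the node of Ranvier and Shaker-type Kcna channels under the myelin beside it. Glial, vascular and muscle cells carry some of the same genes, so a channel gene alone does not mark a neuron.

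The promoters of 3 of the genes are shown because the genes were highest in different lineages although 2 of them lie side by side. Scn7a and Kcnh8, the first a sodium-sensing relative of the sodium channels that is not opened by voltage in the usual way and the second an Elk-type potassium channel, were both highest in Schwann cells. Scn9a, a sodium channel known from sensory and sympathetic neurons, is the next coding gene to Scn7a on chromosome 3 and was highest in neurons. The windows are the 250 bases before each annotated start, 5′ to 3′ on the strand of the gene, from RefSeq on build GRCr8. Scn7a lies on the minus strand at chr3:71846285-71846534, Kcnh8 on the plus strand at chr9:5742433-5742682 and Scn9a on the minus strand at chr3:71701378-71701627. Capitals mark a GC box, here the letters GGGCGG searched on both strands.
Scn7a: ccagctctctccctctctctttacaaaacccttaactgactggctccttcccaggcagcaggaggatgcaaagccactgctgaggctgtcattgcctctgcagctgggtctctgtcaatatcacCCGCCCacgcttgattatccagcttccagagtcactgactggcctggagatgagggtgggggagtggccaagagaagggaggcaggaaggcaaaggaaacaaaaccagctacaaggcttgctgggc
Kcnh8: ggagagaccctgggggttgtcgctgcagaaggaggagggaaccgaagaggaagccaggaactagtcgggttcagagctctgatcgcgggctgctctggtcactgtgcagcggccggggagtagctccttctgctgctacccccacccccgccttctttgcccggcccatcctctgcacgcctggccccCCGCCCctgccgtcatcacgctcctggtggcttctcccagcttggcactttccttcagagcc
Scn9a: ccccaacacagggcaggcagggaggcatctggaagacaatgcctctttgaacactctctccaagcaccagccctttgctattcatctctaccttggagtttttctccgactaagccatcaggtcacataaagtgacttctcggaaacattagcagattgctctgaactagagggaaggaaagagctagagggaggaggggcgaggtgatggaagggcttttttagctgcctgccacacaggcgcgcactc
The Scn7a window held 2 CG dinucleotides, the Kcnh8 window 13 and the Scn9a window 5, against a median of 5 over all 33469 promoters. Scn7a and Kcnh8 each had 1 GC box and Scn9a had none of these letters. Promoters were found for 33 of the 49 genes, and 16 of those 33 (48.5%) held a GC box, against 30.5% of all promoters. The letters TATAAA stood in 1 of the 33, Cacna1s, against 12.9% of all promoters.

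The nuclei were counted as unique molecular identifiers (UMIs), each standing for 1 captured RNA molecule. After 4 untreated nuclei were removed for mitochondrial RNA, 2248 untreated, 2168 scaffold and 906 HGF scaffold nuclei remained, with medians of 1408.5, 1639 and 1047 UMIs per nucleus and 5953189, 5791715 and 1450757 UMIs in all. The HGF scaffold library was the smallest and shallowest. The libraries shared at most 3 cell barcodes. Nuclei were clustered without the channel genes and their partner genes, and clusters were named as neuron-like, oligodendrocyte-like and so on from marker lists, with the suffix left out below. Neurons numbered 158 untreated, 188 scaffold and 31 HGF scaffold nuclei and were deeper than these medians, with median UMIs of 5605.5, 4170 and 1675. Their leading markers were Snhg11, Syt1, Celf4 and Snap25, and all 17 genes of the neuron list had UMIs in the untreated and scaffold neurons. Oligodendrocytes numbered 237, 189 and 109 nuclei, oligodendrocyte precursor cells (OPCs) 133, 104 and 40, Schwann cells 101, 53 and 12, and fibroblasts 499, 255 and 96. Clusters without a safe name held 480, 444 and 170 nuclei. Levels are given as CPM, UMIs of a gene per 1000000 UMIs of that lineage and library, with exact Poisson intervals at 95%. Because there is 1 library per group, no difference between groups has a replicate check and no p-value exists. All intervals cover counting error only. UMI counts depend on the length and structure of a transcript, so the same gene is compared between lineages and levels are not ranked between genes.

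Of the 49 genes, 37 had at least 20 UMIs over all nuclei, and 16 had at least 1000. Together they gave 60837 UMIs, 0.461% of all. Kcna5 had 0 UMIs, and 11 genes had 1 to 19: Kcna2, Kcna3, Kcna4, Kcna7, Kcna10, Kcnc4, Kcnh4, Kcnh6, Scn10a, Scn11a and Cacna1f. These include Kcna2, the usual partner of Kcna1 in axons, with 9 UMIs in all, and Scn10a and Scn11a, channels of pain-sensing sensory neurons, with 15 and 12. Neurons held the highest level of 25 of 35 genes that could be placed in the untreated library, 23 of 34 in the scaffold library and 20 of 27 in the HGF scaffold library. Over all genes the share highest in neurons was 8.15%, 7.71% and 16.1%. In the sum of the 3 libraries it was 22 of 36, against 6.32%.

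**Figure D1:**
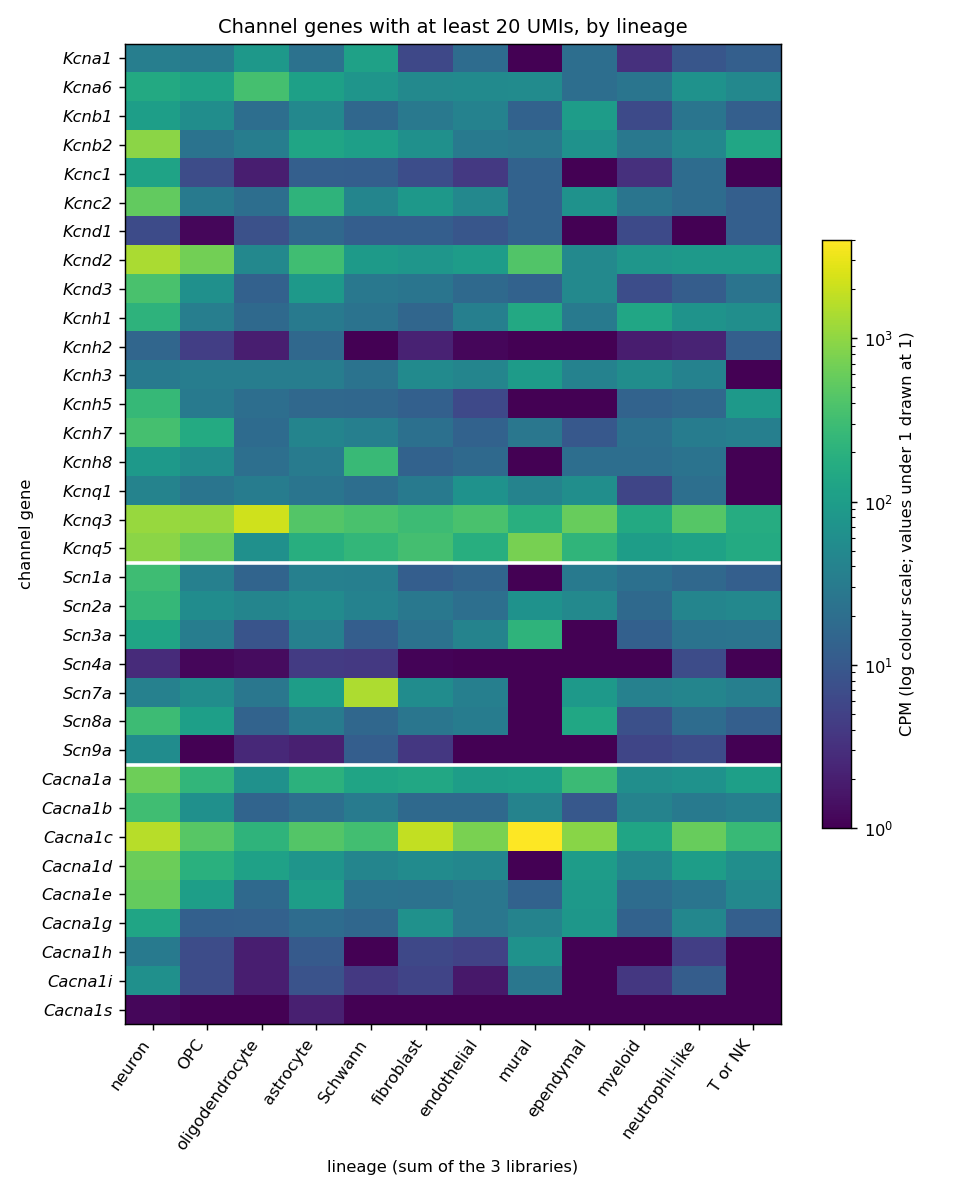
Level in CPM (log colour scale) of channel genes with at least 20 UMIs (rows, not all drawn) in 12 marker-defined lineages (columns, skeletal muscle left out), sum of the 3 libraries. Most rows are brightest in neurons, while Kcnq3 and Kcna6 stand out in oligodendrocytes, Scn7a and Kcnh8 in Schwann cells and Cacna1c in mural cells and fibroblasts.

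Among the potassium channels read in neurons, the A-type channel Kcnd2, which opens below firing threshold and delays spikes, reached 1570.2 CPM (2147 UMIs) in the untreated library, 1221 CPM (1378 UMIs) in the scaffold library and 1280.4 CPM (79 UMIs) in the HGF scaffold library. The delayed rectifier Kcnb2 stood at 1095, 795 and 762 CPM, and Kcnd3, the relative of Kcnd2, at 419, 300.4 and 405 CPM, in the same order of libraries. Of the Kcnc family, whose fast channels allow rapid firing, Kcnc2 gave 600.4, 461 and 551 CPM. Kcnc1 gave 123 CPM over the 3 libraries together. The Kcnq family carries the M-current, which damps repetitive firing. Kcnq3 gave 1209, 987 and 810.4 CPM in neurons and Kcnq5 1178, 628 and 1539.7 CPM. Kcnh7 and Kcnh5, of the ERG and EAG groups, gave 350.3 and 257 CPM over the 3 libraries. Kcna2 had 0, 1 and 0 UMIs in the neurons of the 3 libraries, so its axonal role could not be followed at this depth.

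The sodium channels of central neurons, Scn1a, Scn2a, Scn3a and Scn8a, were highest in neurons in every library among lineages of at least 20 nuclei. Scn1a, the channel of fast-spiking cells, gave 339 CPM (463 UMIs) in the untreated library, 245 CPM (276 UMIs) in the scaffold library and 486 CPM (30 UMIs) in the HGF scaffold library. Scn2a, found in initial segments and unmyelinated axons, gave 274, 207 and 405 CPM, and Scn8a, the main channel of mature nodes, gave 307, 261 and 632 CPM. Scn3a, prominent in developing neurons, gave 152, 100.1 and 259 CPM, and in the sum of the libraries the 34 mural nuclei held more of it, at 217 CPM from 16 UMIs against 132 CPM. Each of these 4 genes was lowest in the scaffold neurons and highest in the HGF scaffold neurons. The HGF scaffold values rest on 16 to 39 UMIs from 31 nuclei. Scn9a was low, at 64.4 CPM (88 UMIs) in the untreated library, 47.8 CPM (54 UMIs) in the scaffold library and 16.2 CPM (1 UMI) in the HGF scaffold library.

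Calcium channel genes were read in neurons across all 3 functional groups. Of the channels of transmitter release, the P/Q-type Cacna1a gave 688 CPM (941 UMIs) in the untreated library, 583 CPM (658 UMIs) in the scaffold library and 940.0 CPM (58 UMIs) in the HGF scaffold library. The N-type Cacna1b gave 326, 291 and 535 CPM and the R-type Cacna1e 638, 447 and 664 CPM. The L-type channels, which couple activity to gene expression, were Cacna1c at 1686, 1554 and 1572 CPM and Cacna1d at 652, 590.1 and 778 CPM. The T-type channel Cacna1g, which supports burst firing, gave 135, 118 and 259 CPM. Cacna1c differed least between the 3 neuron sums among the genes of this paragraph.

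Neuron nuclei with and without inhibitory markers differed in several members. Nuclei with at least 1 UMI of Gad1, Gad2, Slc6a5 or Slc32a1, genes for making or loading GABA and glycine, numbered 45 of 158 untreated and 58 of 188 scaffold neurons. The T-type channel Cacna1i was higher in them by a CPM ratio of 1.85 (1.17 to 2.97) in untreated and 3.40 (2.08 to 5.73) in scaffold neurons, with the 95% interval in brackets. Kcnh8 was higher by 2.12 (1.46 to 3.09) and 2.26 (1.42 to 3.63). Cacna1h, another T-type channel, had ratios of 0.401 (0.184 to 0.806) and 0.409 (0.120 to 1.12), the second with an interval that includes 1. For other genes the libraries gave different values: Kcnd3 had a ratio of 0.298 (0.239 to 0.369) in untreated and 0.968 (0.771 to 1.21) in scaffold neurons, and Kcnq5 0.554 (0.497 to 0.617) and 1.10 (0.944 to 1.28). Nuclei with a marker UMI were deeper, with a median of 10307 against 4511 UMIs in the untreated library, and the part of depth in these ratios was not tested.

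Outside neurons, 2 potassium channel genes were highest in oligodendrocytes in all 3 libraries. In the sum of the libraries oligodendrocytes were highest for 2 of 36 channel genes (5.56%), near the 5.50% of all genes. Kcnq3 reached 2452 CPM (2345 to 2562; 1987 UMIs) in untreated, 1894 CPM (1781 to 2013; 1045 UMIs) in scaffold and 1657 CPM (1462 to 1871; 260 UMIs) in HGF scaffold oligodendrocytes. The neuron values were 1151 to 1269, 929.9 to 1047 and 601 to 1068 CPM as 95% intervals, so the intervals of the 2 lineages did not overlap in any library. UMIs of Kcnq3 were found in 95.4%, 92.1% and 80.7% of oligodendrocyte nuclei. After thinning each nucleus to 500 UMIs the shares were 64.8%, 55.6% and 56.7%, against 44.6%, 35.7% and 24.6% of neurons and 11.9%, 8.77% and 3.53% of myeloid nuclei. Both oligodendrocyte clusters carried it, with 1937 CPM in the cluster led by Mobp, Mog and Opalin and 2810 CPM in the one led by Mag, Hapln2 and Mbp. Kcna6, a Shaker-type delayed rectifier, was 406 CPM (329 UMIs), 265 CPM (146 UMIs) and 369.7 CPM (58 UMIs) in oligodendrocytes of the 3 libraries, against 167, 136 and 113 CPM in neurons. Its thinned share was 15.5% of oligodendrocytes, 7.22% of neurons and 1.30% of myeloid nuclei over the 3 libraries.

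Schwann cells, the myelinating and supporting glia of peripheral nerve that enter injured cord, had the highest level of Kcna1, Scn7a and Kcnh8 in the untreated and scaffold libraries. These were 3 of 35 and 3 of 34 channel genes (8.57% and 8.82%), below the 14.6% and 15.6% of all genes. Scn7a was 1525 CPM (1340.0 to 1728; 245 UMIs) in untreated and 1143 CPM (920.3 to 1403; 91 UMIs) in scaffold Schwann cells, while the 12 HGF scaffold nuclei gave 2171 CPM (1443 to 3138; 28 UMIs). Neurons held 32.9, 47.0 and 16.2 CPM. Of the 245 untreated UMIs 233 lay in 1 of the 2 Schwann clusters, led by Cdh19, Ngfr and Sox10, which gave 2955, 1952 and 3103 CPM in the 3 libraries. The cluster led by Prx and Egr2, genes of myelinating Schwann cells, gave 147 and 58.8 CPM from 12 and 2 UMIs in the untreated and scaffold libraries, and 0 UMIs in the 4 HGF scaffold nuclei. Kcnh8 followed the same split, with 520.0 CPM (41 UMIs) untreated and 460.5 CPM (21 UMIs) scaffold in the Cdh19 cluster, out of 45 and 24 UMIs in all Schwann nuclei. Kcna1, the Shaker channel of the axon beside the node, lay on the other side: 19 of 24 untreated and 5 of 5 scaffold UMIs were in the myelin cluster. That is 232 and 147 CPM there, on few counts. All Schwann nuclei together gave 149 CPM (24 UMIs) untreated and 62.8 CPM (5 UMIs) scaffold. Oligodendrocytes were second for Kcna1 in these libraries at 99.9 CPM (81 UMIs) and 59.8 CPM (33 UMIs). The scaffold values of the 2 lineages were close, so their order there is not settled. In the HGF scaffold library oligodendrocytes were highest among lineages of at least 20 nuclei, at 82.9 CPM. Neurons held 39.5, 30.1 and 32.4 CPM of Kcna1 in the 3 libraries. Scn9a, the neighbour of Scn7a whose promoter is printed with it, had 2 and 0 UMIs in untreated and scaffold Schwann cells.

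The L-type gene Cacna1c, the calcium channel of smooth and heart muscle as well as of neurons, was highest in the contractile mural cells of vessels. It gave 4429 CPM (3562 to 5444; 90 UMIs) from 14 untreated, 4112 CPM (3532 to 4761; 179 UMIs) from 15 scaffold and 2498 CPM (1617 to 3688; 25 UMIs) from 5 HGF scaffold mural nuclei, and 68 of the scaffold UMIs came from 1 nucleus. Fibroblasts gave 1979 CPM (2287 UMIs), 1710.2 CPM (831 UMIs) and 1409 CPM (256 UMIs), near the neuron values given above. After thinning, 76.0% of mural, 43.1% of fibroblast and 49.1% of neuron nuclei had a UMI. Kcnq1, best known from heart and secretory epithelia, was highest in endothelial cells at 91.2, 51.6 and 53.3 CPM, against 51.9, 26.6 and 32.4 CPM in neurons. This order turned when the nuclei with the highest doublet scores were removed, to a log2 ratio of -0.07 for endothelial cells over neurons. Skeletal muscle was represented by 6 untreated and 1 HGF scaffold nuclei. They held 73 and 9 UMIs of Kcnq5, with 33 of the 73 in 1 nucleus, and also the muscle channels Cacna1s (17 UMIs) and Scn4a (9 UMIs), of which 8 came from 1 nucleus and 7 from another.

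**Figure D2:**
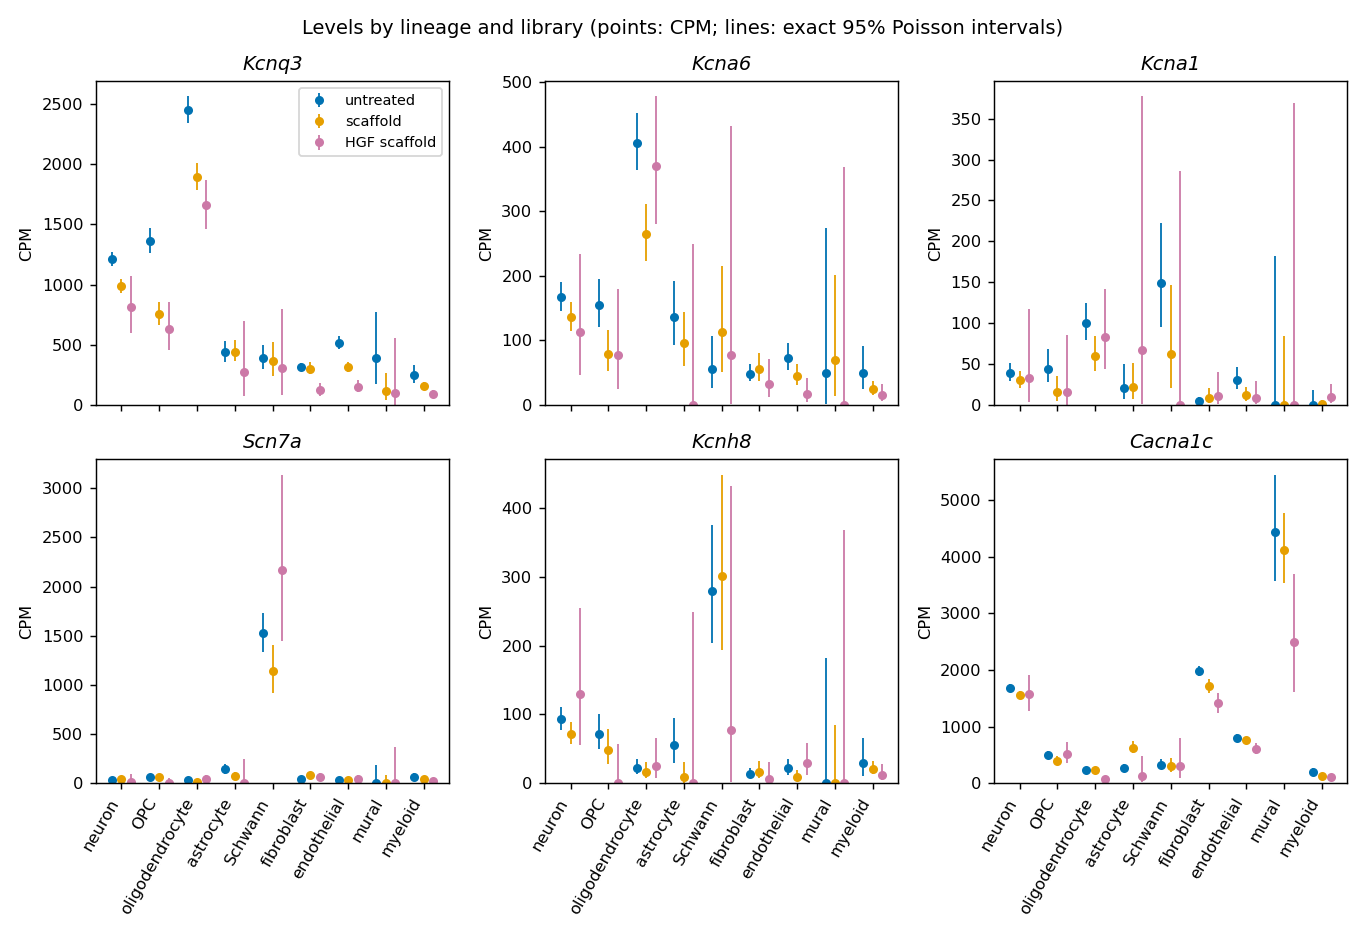
CPM (linear axes from 0, 1 panel a gene) of 6 genes that were highest outside neurons, by lineage and library, points with exact 95% Poisson intervals. Kcnq3 and Kcna6 lie higher in oligodendrocytes than in neurons in all 3 libraries, and Scn7a lies above 1000 CPM only in Schwann cells.

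OPCs, the dividing precursors of oligodendrocytes, held UMIs of many channel genes, most of them below the neuron level. Kcnd2 gave 753 CPM (355 UMIs) in the untreated library, 517 CPM (169 UMIs) in the scaffold library and 1093 CPM (71 UMIs) in the HGF scaffold library, Kcnq3 1364, 756 and 631 CPM and Kcnq5 672, 520.2 and 769 CPM. The thinned share of nuclei with Kcnd2 was 29.6% of OPCs, 42.2% of neurons and 2.67% of oligodendrocytes. Free neuronal RNA in droplets can add such counts, so each gene's level in a lineage was divided by its level in neurons and set beside the same quotient for neuron markers. In untreated OPCs the 14 markers had a median quotient of 0.0780 and a highest of 0.250, while the 33 channel genes had a median of 0.298, 18 lay above the highest marker and 4 above 1, the neuron level. In scaffold OPCs the medians were 0.173 and 0.286, and 10 of 32 channel genes lay above the highest marker at 0.463. The channels above it in both included Kcnq3 (1.13 and 0.766), Kcnq5 (0.571 and 0.828) and Kcnh8 (0.770 and 0.682). In HGF scaffold OPCs only 4 markers and 15 channel genes could be read, with medians of 0.0363 and 0.228 and 10 channel genes above the highest marker. Scn9a had 0 UMIs in untreated and scaffold OPCs.

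Untreated oligodendrocytes had medians of 0.0407 for markers and 0.0649 for channel genes, with 6 of 33 channel genes above the highest marker, and scaffold oligodendrocytes 0.0434 and 0.111, with 5 of 32 above it. Fibroblasts had 0.0356 and 0.126 in the untreated and 0.0771 and 0.129 in the scaffold library, and endothelial cells 0.0304 and 0.0898 and then 0.0582 and 0.115. Myeloid cells had 0.0984 and 0.0986 untreated and 0.0757 and 0.0850 scaffold. In Schwann cells the markers had the higher median in both, 0.160 and 0.113 untreated and 0.146 and 0.108 scaffold. Astrocytes had 0.105 and 0.171 untreated and 0.303 and 0.287 scaffold. The highest marker differed between lineages, from 0.250 in untreated OPCs to 1.73 (Eno2) in untreated astrocytes. Nefl (1.39) and Stmn2 (1.11) also lay above the neuron level in untreated astrocytes. Counts of channel genes above the highest marker are therefore not comparable between lineages. How far these quotients measure free RNA was not tested. In the HGF scaffold library, with 4 markers, the medians were 0.0185 and 0.0373 in oligodendrocytes, 0.0126 and 0.0637 in fibroblasts, 0.0320 and 0.0646 in endothelial and 0.0102 and 0.0252 in myeloid cells, and 10, 14, 11 and 9 of 15 channel genes lay above the highest marker.

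**Figure D3:**
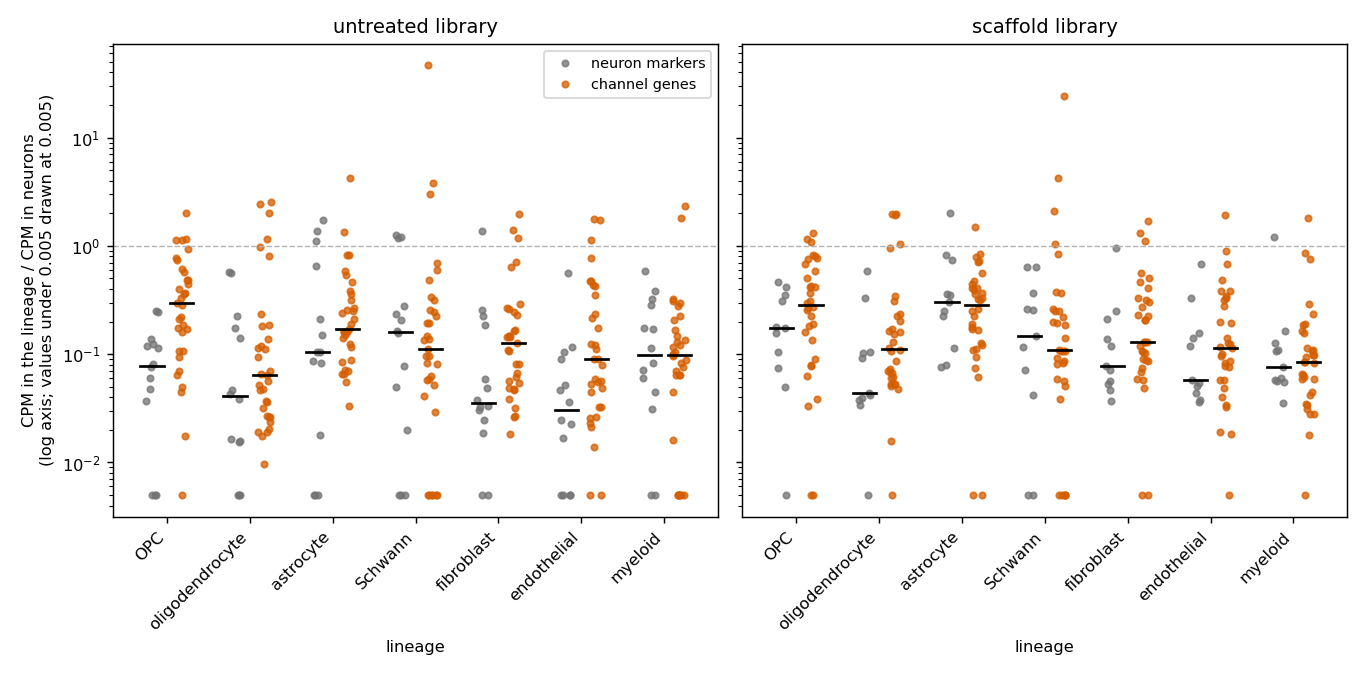
Quotient of the CPM in a lineage over the CPM in neurons (log axis) for neuron markers and for channel genes, by lineage, in the untreated and the scaffold library, each point 1 gene, black bars the medians, quotients under 0.005 drawn there. In untreated OPCs the channel genes have a median of 0.298 against 0.0780 for the markers, and in untreated myeloid nuclei 0.0986 against 0.0984.

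The scaffold library was compared with the untreated library to see what an implant without the growth factor went with. Summed over all nuclei, 12 of 37 channel genes with at least 20 UMIs were at least 1.5-fold lower in the scaffold library, against 13.7% of all genes, and 2 were at least 1.5-fold higher, against 14.5%. The log2 ratio was below 0 for 33 of the 37, with a median of -0.54 beside 0.04 for all genes. The lower genes included 3 that were highest in myelinating glia: Kcna1 with a ratio of 0.479 (0.376 to 0.607), Kcna6 with 0.641 (0.573 to 0.717) and Kcnq3 with 0.642 (0.616 to 0.670). Kcnq1 had 0.465 (0.372 to 0.579), Kcnq5 0.635 (0.599 to 0.673) and Kcnc2 0.642 (0.584 to 0.706). Cacna1s had 0.257 (0.0625 to 0.796), with no skeletal muscle nuclei in the scaffold library. The 2 higher genes were Kcnd1 with 1.59 (1.04 to 2.46) and Kcnh1 with 1.55 (1.35 to 1.77). In sums over all nuclei, fewer nuclei of a lineage and less RNA per nucleus cannot be told apart. With each cluster given its untreated share of UMIs the lower genes numbered 3 and the median was -0.31 (share of all genes not given). Kcnh1 then had a ratio of 1.31, under the 1.5-fold line, and 7.52 without neurons. For Kcnd1 the log2 ratio was 0.80 at those shares in place of 0.67, but under 1.5-fold without neurons (0.51), with equal weight per nucleus (0.36), without mixed nuclei (0.34) and without the highest doublet scores (0.57).

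Within neurons the direction was the same and the size smaller. None of 33 channel genes was at least 1.5-fold higher in scaffold neurons, against 20.7% of all genes, and 4 were at least 1.5-fold lower, against 7.06%. The log2 ratio was below 0 for 29 of 33, with a median of -0.36 beside 0.16 for all genes. The 4 were Kcnq5 at 0.533 (0.487 to 0.583), Kcnq1 at 0.512 (0.322 to 0.795), Scn3a at 0.658 (0.519 to 0.832) and Cacna1h at 0.644 (0.380 to 1.07), whose interval includes 1. Kcnq5 went from 1178 CPM (1121 to 1237; 1611 UMIs) to 628 CPM (583 to 676; 709 UMIs). Genes lower by less than 1.5-fold, with intervals below 1, included Cacna1e at 0.702 (0.628 to 0.784), Kcnh5 at 0.703 (0.597 to 0.827), Kcnd3 at 0.717 (0.625 to 0.821), Scn1a at 0.722 (0.620 to 0.840), Kcnb2 at 0.726 (0.668 to 0.789), Scn2a at 0.758 (0.641 to 0.895) and Kcnc2 at 0.767 (0.686 to 0.857). Kcnd2 had 0.778 (0.726 to 0.832), Kcnq3 0.816 (0.756 to 0.881) and Cacna1c 0.922 (0.866 to 0.981). Beside them, the 16 neuron markers that could be read had a median log2 ratio of -0.25, with 3 lower and 2 higher by 1.5-fold. The myeloid marker list, 19 genes, summed to 731 CPM in untreated and 2305 CPM in scaffold neurons, and its part in the ratios was not tested. The count of lower genes ranged from 2 to 14 over the alternative settings, and with mixed nuclei removed the median was -0.14. The share of all genes under those settings is not given.

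The counts differed between the glial and vascular lineages. In OPCs 6 of 25 genes were lower, against 12.4% of all genes, and 3 higher, against 24.4%. Scn1a had the OPC ratio farthest from 1 among those whose interval leaves out 1, at 0.267 (0.0804 to 0.704) on 27 and 5 UMIs, and Kcnq3 had 0.554 (0.477 to 0.643), Kcnd2 0.687 (0.569 to 0.827) and Kcna6 0.514 (0.315 to 0.814). Of the 12 OPC markers that could be read, 7 were lower as well. In oligodendrocytes 4 of 22 genes were lower, against 8.68%, and 5 higher, against 21.3%. Kcna6 had 0.652 (0.533 to 0.795), Kcna1 0.599 (0.387 to 0.908) and Kcnq3 0.773 (0.716 to 0.833) there, beside 2 of 14 oligodendrocyte markers lower.

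Fibroblasts had 3 of 26 genes lower, against 14.6%, and 5 higher, against 17.2%. Endothelial cells had 6 of 25 lower, against 12%, and 2 higher, against 19.4%, beside 8 of 12 endothelial markers lower. Kcnd3 went from 0 UMIs in 197 untreated to 29 UMIs in 164 scaffold endothelial nuclei, a log2 ratio of at least 3.17 against a floor of 3 UMIs per library. Of the 29 UMIs 16 came from 1 nucleus, and the log2 ratio was 0.03 with mixed nuclei removed. Schwann cells had 3 of 9 lower, against 20.5%, and 0 higher, against 18.6%, with Cacna1a at 0.374 (0.112 to 0.984) and Scn7a at 0.750 (0.583 to 0.957). In astrocytes 4 of 15 were lower, against 13.8%, and 5 higher, against 16%. Cacna1c was higher there at 2.31 (1.71 to 3.16), but 45 of the 145 scaffold UMIs came from 1 nucleus, and the log2 ratio was 0.04 with mixed nuclei removed.

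Kcnh1, an EAG-type potassium channel, was the member with the largest scaffold over untreated ratio in myeloid cells, fibroblasts and oligodendrocytes among those whose interval leaves out 1. Neurons held 233 CPM (318 UMIs) in the untreated library, 190.5 CPM (215 UMIs) in the scaffold library and 243 CPM (15 UMIs) in the HGF scaffold library. Myeloid cells held 15 CPM (3 UMIs) in the untreated library, 145 CPM (139 UMIs) in the scaffold library and 164 CPM (67 UMIs) in the HGF scaffold library, a ratio of 9.66 (3.24 to 47.4) for scaffold over untreated. The myeloid nuclei of the libraries came from different clusters. The cluster led by Msr1, Itgam and Lyn held 15 untreated, 355 scaffold and 294 HGF scaffold nuclei and gave 1 UMI untreated, 160.2 CPM (131 UMIs) scaffold and 172 CPM (66 UMIs) HGF scaffold. The cluster led by Cx3cr1, Sall1 and Tmem119, genes typical of microglia, held 212, 110 and 32 nuclei and gave 2, 8 and 1 UMIs, which is 10.8 and 56.7 CPM in the untreated and scaffold libraries. The thinned share of myeloid nuclei with Kcnh1 was 0.735%, 5.30% and 6.07%. With the channel genes kept in the clustering, the log2 ratio in myeloid cells was 1.40 in place of 3.27, from 17 untreated nuclei in place of 227. Of the 18 channel genes that could be compared in myeloid cells 2 were at least 1.5-fold higher, against 21.9% of all genes, and 9 lower, against 20.8%.

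The same gene was also higher in the other scaffold lineages, from lower counts. It had a ratio of 6.46 (2.60 to 18.2) in fibroblasts, 4.99 (1.77 to 17.3) in oligodendrocytes, 4.25 (2.04 to 9.96) in endothelial cells and 3.504 (1.38 to 10.00) in OPCs. In neurons it was 0.819 (0.686 to 0.977). Over all nuclei without neurons the level went from 9.39 to 70.6 CPM. In the same lineages the summed myeloid markers went from 891 to 3389.5 CPM in fibroblasts, 1262 to 3489.6 in oligodendrocytes, 1046 to 3932 in endothelial cells and 1088 to 4153 in OPCs. The part of myeloid RNA in the Kcnh1 values of these lineages was not tested.

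**Figure D4:**
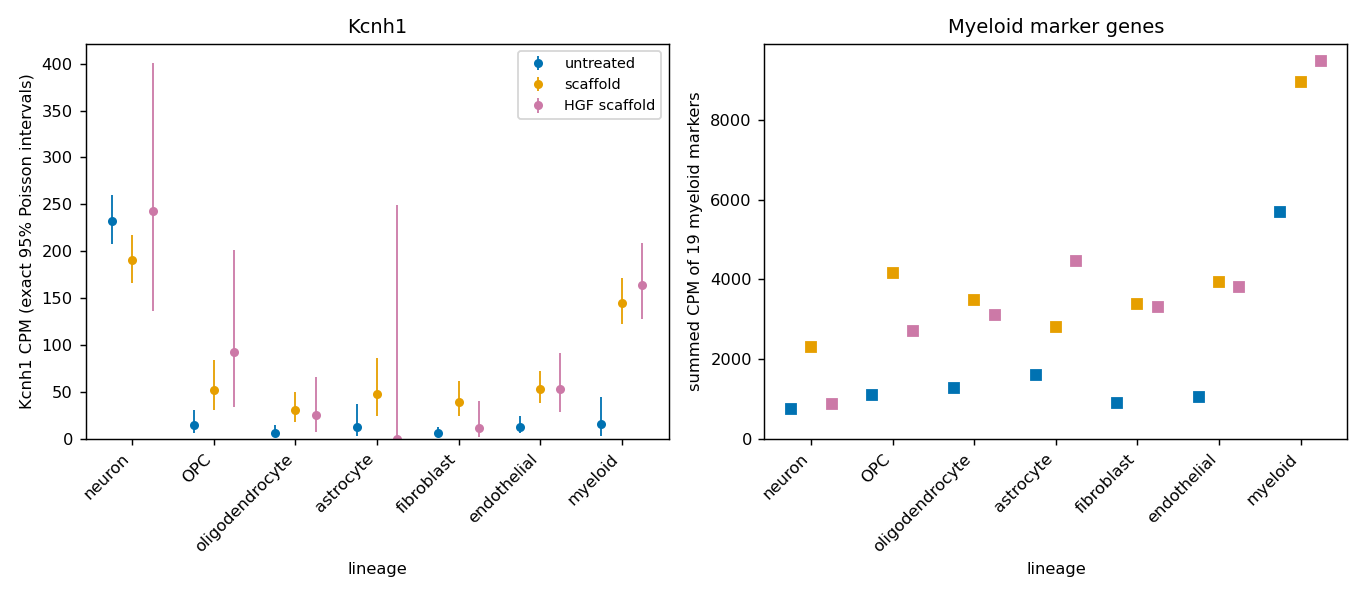
Kcnh1 level in CPM with exact 95% Poisson intervals (left) and summed CPM of the 19 myeloid markers (right) by lineage and library. For Kcnh1 neurons lie between 190.5 and 243 CPM in all 3 libraries, while myeloid cells are at 15 CPM untreated and at 145 and 164 CPM in the implanted libraries.

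The HGF scaffold library was compared with the scaffold library, which is also the numerator of the comparison above, so the 2 comparisons are not independent. Over all nuclei 19 of 34 channel genes were at least 1.5-fold lower, against 12% of all genes, and 0 were higher, against 7.91%. The median log2 ratio was -0.72, beside 0.02 for all genes. The ratios farthest below 1 were those of Scn9a, 0.164 (0.0331 to 0.499), Kcnh2, 0.250 (0.0290 to 0.978), Kcnb2, 0.264 (0.205 to 0.334), Kcnh5, 0.328 (0.209 to 0.494), and Kcnh7, 0.383 (0.280 to 0.514). Those of Kcnc2, Kcnd2, Scn1a, Kcnd3 and Cacna1e lay between 0.412 and 0.434. Neurons made up 3.42% of HGF scaffold and 8.67% of scaffold nuclei, and 4.25% and 19.5% of UMIs. Without neurons the median was -0.32, and with each cluster given its scaffold share of UMIs it was 0.26.

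Inside neurons the order turned. Of 32 channel genes, 12 were at least 1.5-fold higher in HGF scaffold neurons, against 27.2% of all genes, and 3 lower, against 24.6%, with a median log2 ratio of 0.38 beside 0.02. The 4 sodium channels of central neurons were among the higher: Scn3a at 2.59 (1.43 to 4.39), Scn8a at 2.42 (1.69 to 3.39), Scn1a at 1.99 (1.32 to 2.90) and Scn2a at 1.95 (1.24 to 2.96). So were Kcnq5 at 2.45 (1.96 to 3.04), Cacna1g at 2.20 (1.22 to 3.71), Cacna1b at 1.83 (1.24 to 2.63) and Cacna1a at 1.61 (1.21 to 2.11), with Cacna1e at 1.49 (1.05 to 2.04) just under the fold. Single nuclei weighed in these counts: 1 nucleus gave 30 of the 95 Kcnq5 UMIs and another 12 of the 39 Scn8a UMIs, and with the nucleus richest in the gene left out of each library the ratios were 1.85 (1.41 to 2.39) and 2.01 (1.30 to 2.99). The neuron markers moved with them, 9 of 14 higher with a median log2 ratio of 0.96, and their sum was 4481 CPM in scaffold and 10048 CPM in HGF scaffold neurons. The 19 myeloid markers summed to 2305 and 875 CPM in the same neurons, with 8 of them, Cx3cr1 and P2ry12 included, at 0 in the HGF scaffold neurons. The 12 neutrophil markers summed to 123 and 713 CPM, with Mpo, Elane and 6 others at 0 in the latter. The part of these markers in the ratios was not tested. With mixed nuclei removed the median of the channel genes was -0.09 and 4 were higher (share of all genes not given).

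In OPCs 5 of 17 genes were higher, against 14.9% of all genes, and 1 lower, against 29.8%. Kcnd2 led with 2.11 (1.58 to 2.80), followed by Scn8a with 2.10 (1.07 to 3.92) and Kcnq5 with 1.48 (1.06 to 2.04), beside 6 of 11 OPC markers higher and 2 lower. Scn7a had 20 UMIs in scaffold and 0 in HGF scaffold OPCs. It was not counted as lower, since a floor of 3 UMIs in place of 0 gave a log2 ratio of -0.41. In oligodendrocytes 1 of 13 was higher, against 11.7%, and 4 lower, against 18.2%. Kcnq3 there had 0.875 (0.761 to 1.003) and Kcna6 1.40 (1.01 to 1.91), while Kcnd2 had 0.293 (0.0577 to 0.927) on few counts. Fibroblasts had 2 of 15 higher, against 11.6%, and 6 lower, against 17.4%, with Kcnq3 at 0.403 (0.245 to 0.634). Endothelial cells had 4 of 19 higher, against 11.9%, and 3 lower, against 15.7%, with Kcnd3 at 0.110 (0.00268 to 0.661) on 29 and 1 UMIs. Removing mixed nuclei turned that direction, to a log2 ratio of 1.26. Myeloid cells had 1 of 17 higher, against 9.55%, and 12 lower, against 13.7%, with Cacna1e at 0.124 (0.00297 to 0.777) and Kcnd2 at 0.147 (0.0525 to 0.331).

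**Figure D5:**
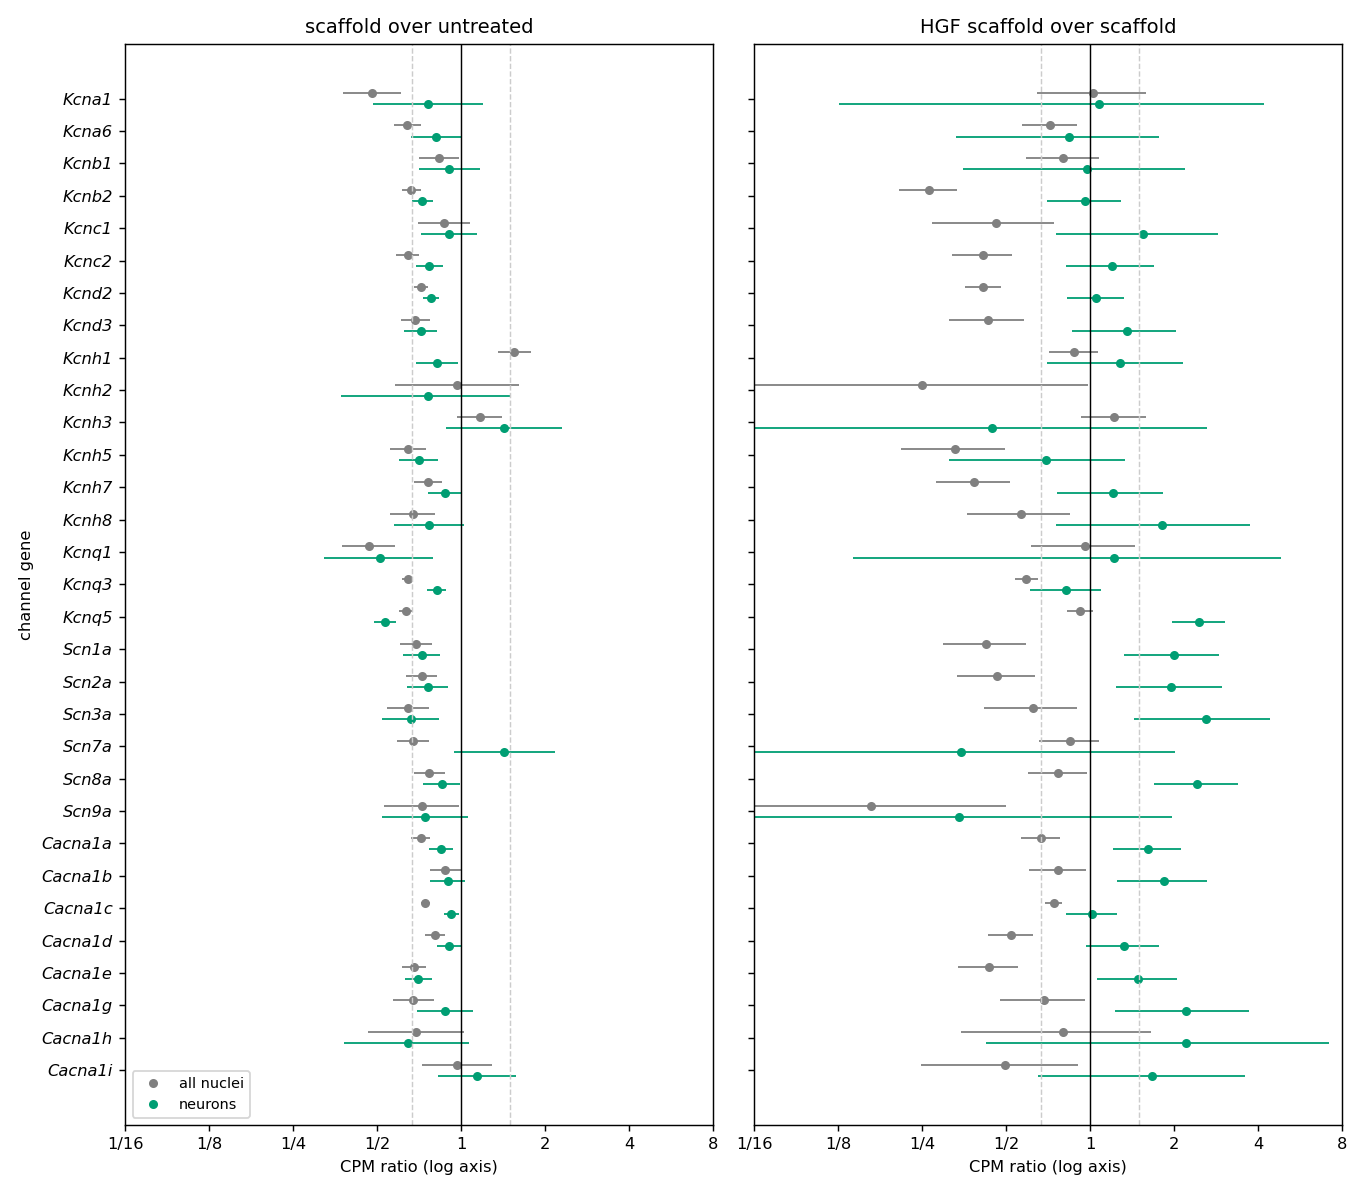
CPM ratios (log2 axis) of channel genes compared in neurons (not all drawn) with exact conditional 95% intervals, for scaffold over untreated and HGF scaffold over scaffold, in all nuclei and in neurons, with dashed lines at 1.5-fold. In all nuclei most points lie below 1 in both comparisons, and in neurons they lie mostly below 1 for scaffold over untreated and on both sides for HGF scaffold over scaffold.

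The auxiliary subunits, which set the surface level and gating of the pore genes, were partly neuronal and partly glial. Of the potassium channel partners, 6 of 12 that could be placed were highest in neurons, against 6.32% of all genes, led by Kcnip4 at 4072 CPM and Dpp6 at 2005 CPM over the 3 libraries, both partners of Kcnd2. OPCs, which also carried Kcnd2, held Dpp6 at 782 and Dpp10 at 715 CPM, against 929 CPM of Dpp10 in neurons. Of the sodium channel partners 3 of 6 were highest in neurons, with Fgf12 at 647 and Fgf14 at 619.7 CPM. Of the calcium channel partners 3 of 8 were. Cacna2d1 and Cacnb2, partners of Cacna1c, were highest in mural cells like Cacna1c itself, at 1137 and 366 CPM against 622 and 361 CPM in neurons. Of the genes that assemble the node and initial segment 2 of 10 were highest in neurons. Ank3, the anchor of nodal sodium and Kcnq channels, was highest in Schwann cells at 3073 CPM. It also stood at 2289 CPM in oligodendrocytes, 2232 CPM in neurons and 2105 CPM in OPCs. Nfasc was highest in OPCs at 3177 CPM.

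In scaffold over untreated neurons, the partner lists had 4 of 9 potassium, 3 of 5 sodium, 2 of 6 calcium and 0 of 9 node genes at least 1.5-fold lower, with medians of -0.57, -0.60, -0.32 and -0.18 on the log2 scale. Higher were 0, 1, 0 and 0. All genes had 7.06% lower, 20.7% higher and a median of 0.16. In HGF scaffold over scaffold neurons the medians were -0.07, 0.46, 0.09 and 0.46, with 1 of 7, 2 of 5, 1 of 5 and 3 of 9 genes higher and 1, 0, 0 and 1 lower. All genes had 27.2% higher, 24.6% lower and a median of 0.02.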

How the data were processed

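Droplet-based single-nucleus RNA sequencing gave 3 deposited matrices of UMI counts per gene and nucleus. Per the submitters' processing notes the deposited counts were made with Cell Ranger 6.0.1. The genome build and annotation are not given in the sources used here. No nucleus kept had under 500 UMIs. Nuclei with at least 200 genes and at most 5% mitochondrial UMIs were kept. After scaling to 10000 UMIs for each nucleus and a log transform, 2000 variable genes, 30 principal components, 15 neighbours and Leiden resolution 1 gave 21 clusters (scanpy 1.11.5, Python 3.11.15). Channel and partner genes were kept out of the variable genes. A cluster was named from at least 3 markers among its 100 leading genes. Scrublet marked 16 of 5322 nuclei as doublets, too few to trust, so none was removed in the main analysis and removal was tried as an alternative.

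Raw UMI counts were summed per lineage and library and divided by the sum of all genes, which gave the CPM. For ratios the interval is Clopper-Pearson's, exact and conditional on the 2 counts together, at 95%. A gene counts as higher or lower from 1.5-fold on, if the 2 libraries hold at least 20 UMIs of it. Lineages under 20 nuclei in a library were left out of counts between lineages. Intervals and ratios were tested on simulated data. No test between groups was run, since each has 1 library. Named genes are those highest outside neurons with at least 20 UMIs there, up to 10 with the largest ratios per comparison whose interval leaves out 1, the gene with the largest such ratio in each other lineage, and 18 genes chosen by name, of which some are not reported here. The genes and lists were chosen with earlier results of these data known. All 49 genes matched the RefSeq gene table and 33 had a promoter in it. Alternatives covered the doublets, the clustering, the minimum depth, the scaling and the makeup of the libraries.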

Additional observations from a re-analysis of the deposited data

Results flagged for a closer look

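For 5 channel genes the ratio between the same 2 libraries lay on opposite sides of 1 in different lineages, past 1.5-fold in each. The share of all genes that meet this rule is not given, so the count does not tell a trait of the channel genes from one of all genes. With 1 library per group, the difference between lineages was not tested. For scaffold over untreated, Kcnq5 had a ratio of 1.69 in astrocytes, 0.533 in neurons and 0.462 in Schwann cells, where 1 nucleus held 17 of the 48 untreated and 1 held 7 of the 11 scaffold UMIs and the ratio without both was 0.259 (0.0665 to 0.734). Kcnb2, a delayed rectifier, had 1.89 in oligodendrocytes, 0.498 in astrocytes and 0.387 in myeloid cells. Cacna1a, the P/Q-type calcium channel, had 1.89 in astrocytes, 0.628 in OPCs and 0.374 in Schwann cells. In astrocytes 27 of the 63 scaffold Cacna1a UMIs came from 1 nucleus, and with the nucleus richest in the gene left out of each library the ratio was 1.26 (0.753 to 2.11), under 1.5-fold. Scn7a had 1.75 in fibroblasts and 0.495 in astrocytes, and without such nuclei 1.49 (0.897 to 2.45), under 1.5-fold, and 0.575 (0.268 to 1.18).

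For HGF scaffold over scaffold, the A-type channel Kcnd2 had 2.11 in OPCs, 0.293 in oligodendrocytes and 0.147 in myeloid cells. Without the richest nuclei the oligodendrocyte ratio was 0.104 (0.00257 to 0.622), since 1 nucleus held 2 of only 3 HGF scaffold UMIs. Kcnq5 had 2.45 in neurons, 1.65 in fibroblasts and 0.510 in myeloid cells, and 1.85 (1.41 to 2.39), 1.88 (1.39 to 2.52) and 0.557 (0.333 to 0.894) without them.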

How the results depend on the processing

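Counts and medians over the channel genes depended on which nuclei entered and on cell makeup. For HGF scaffold over scaffold in all nuclei, cluster shares held at those of the scaffold library turned the median log2 ratio from -0.72 to 0.26, with 9 genes higher and 1 lower in place of 0 and 19. Leaving out neurons gave -0.32 and 9 lower, and a minimum of 1 UMI gave 9 higher. In neurons removing mixed nuclei turned 0.38 to -0.0935, with 4 higher in place of 12. A minimum of 1 UMI gave 23 higher and equal weight per nucleus 5 lower in place of 3. For scaffold over untreated in all nuclei, the median of -0.54 became -0.31 at untreated cluster shares, -0.21 with equal weight and -0.23 without neurons. Lower genes numbered 3 and 6 under the first 2 of these, in place of 12. Higher genes numbered 7 with a minimum of 1 UMI and 1 at untreated cluster shares, with the highest Scrublet scores removed or with mixed nuclei removed, in place of 2. In neurons the median of -0.36 became -0.53 with each library clustered alone, -0.47 without the highest Scrublet scores, -0.53 after the median of all genes was subtracted and -0.14 without mixed nuclei. The lower genes numbered 14, 13, 11 and 7 in that order, 2 without Scrublet calls and 7 with a minimum of 1 UMI, in place of 4. Higher genes numbered 7 with a minimum of 1 UMI, 2 with equal weight, and 1 with at least 500 genes, without the highest scores or without mixed nuclei, in place of 0. With at least 50 UMIs, 11 genes in place of 20 were highest in HGF scaffold neurons, since fewer genes were counted. Beyond that construction the cause of these moves was not tested. The share of all genes under each of these settings is not given. The counts therefore do not tell a move of the channel genes from a move of all genes.

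Single genes turned direction on the log2 scale. At scaffold cluster shares, HGF scaffold over scaffold in all nuclei became 0.37 for Cacna1e, 0.0665 for Kcnc2, 0.0024 for Kcnd2, 0.25 for Kcnd3, 0.0819 for Kcnh2, 0.0587 for Kcnh7 and 0.64 for Scn1a. Cacna1s in scaffold over untreated became 0.22. Without mixed nuclei Cacna1e in HGF scaffold neurons became -0.0552 and Kcnd3 in endothelial cells 1.26. Kcnq1 in endothelial cells over neurons became -0.0741 without the highest Scrublet scores, and endothelial nuclei then numbered 54, 38 and 6. The alternatives on cluster shares, without neurons, on the highest scores and on the nucleus richest in a gene were chosen after seeing the data. Of the comparisons of counts and medians 121 kept their value within the limit set for them, 33 moved and 2 turned. No paired analysis was possible because each group has 1 library and the labels give no replicate numbers. The 31 HGF scaffold neurons, with 61701 UMIs, limit every neuron value of that library.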
